A study of Mus musculus with 2 samples.

Results

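The voltage-gated sodium and calcium channel genes were followed in DNase-seq data from mouse frontal cortex. They were taken as every protein-coding gene of GENCODE M21 (mm10) whose symbol is Scn, a number and then a or b, or begins with Cacna1, Cacna2d or Cacnb. The rule gave 32 of 21951 protein-coding genes, 14 for sodium channels and 18 for calcium channels, and it used no measured value. The tissue came from female mice aged 14 days of the F1 cross B6CASTF1/J, which joins a C57BL/6J genome with a CAST/EiJ genome, and no treatment or mutation is labelled. There was 1 group of 2 libraries, labelled biological replicates 1 and 2, with separate biosample labels and the same donor label. Both also bear the label 3x, which is not explained there, so pooling of animals is unknown and the spread between the libraries may be partly technical. With 1 group, no comparison of conditions was possible. Each gene was described in both libraries, and the channel genes were set beside all protein-coding genes with no test.

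Sodium channels open on depolarisation and carry the upstroke of the action potential. Each has a large pore-forming alpha subunit, encoded by a gene ending in a, and smaller beta subunits that adjust gating and bind adhesion partners. Voltage-gated calcium channels have a pore-forming alpha1 subunit (Cacna1 genes), an alpha2delta subunit outside the membrane (Cacna2d genes) that promotes delivery to the cell surface, and a cytoplasmic beta subunit (Cacnb genes). In cortex they couple spikes to transmitter release, dendritic calcium entry and calcium-dependent transcription.

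DNase I cuts DNA that is not wrapped in nucleosomes, so a run of dense cutting, called a peak, marks an accessible site. A footprint is a short stretch inside such a site that is cut less than its surroundings, as happens where a protein covers DNA. Promoter peaks of a gene were those reaching into the 500 bp around one of its transcription start sites (TSSs), counted on each side. A linked peak overlapped no TSS window of any gene and had its midpoint in the gene body or within 10 kb of it. Strength is the authors' signal value of a peak, normalised for depth. Its scale is not stated.

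Of the series as a whole, replicate 1 held 93641 peaks and 234094 footprints, and replicate 2 held 66196 peaks and 154015 footprints. If the smallest step in the signal is taken as 1 cut, replicate 1 was 1.28 times as deep. Promoter peaks in both libraries were present at 3 of 3 pan-neuronal markers, 3 of 5 excitatory and 2 of 5 inhibitory neuron markers and 2 of 4 astrocyte markers, against 0 of 4 oligodendrocyte, 0 of 4 microglial and 0 of 5 skeletal muscle and heart markers. Retina markers had 1 of 3 (Nrl). The tissue is a mixture of cells, so a site open in few cells and a site weakly open in many cannot be told apart.

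Promoter sequences of 6 channel genes are given first, because each has the highest mean rank of promoter strength over both libraries in its role, for 6 roles: the P/Q, N and R type pores (Cacna1a), the T type pores (Cacna1g), the alpha2delta subunits (Cacna2d2), the L type pores (Cacna1c), the brain sodium pores (Scn2a) and the sodium beta subunits (Scn3b). The letters are those of the GRCm38 (mm10) reference from C57BL/6J, 5′ to 3′ on the strand of the gene, and the sample also carried CAST/EiJ alleles, which were not read here. Each window comes from the gene's strongest promoter region called in both libraries, which need not lie at a coding start. The longest stretch of the region free of annotated UTR was kept. A stretch above 300 bp was cut to the 300 bp with the most bases in footprints of both libraries. The Cacna1a window lay over a coding exon 251 kb from the 5′ end, beside the start of a noncoding transcript. The Cacna2d2 window lay in an intron at 127 kb, also beside the start of a noncoding transcript. The midpoint of the Cacna1c region was 657 bp from the nearest annotated start site. Capitals mark bases that lie in footprints of both libraries.
Cacna1a, chr8:84639372-84639671, plus strand: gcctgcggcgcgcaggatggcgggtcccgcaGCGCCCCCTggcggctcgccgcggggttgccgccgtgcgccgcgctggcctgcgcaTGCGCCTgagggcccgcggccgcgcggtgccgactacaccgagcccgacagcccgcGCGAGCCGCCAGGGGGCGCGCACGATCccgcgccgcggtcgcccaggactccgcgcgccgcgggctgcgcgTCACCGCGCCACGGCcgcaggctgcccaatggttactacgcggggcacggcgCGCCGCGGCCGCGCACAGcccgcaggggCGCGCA
Cacna1g, chr11:94474301-94474560, minus strand: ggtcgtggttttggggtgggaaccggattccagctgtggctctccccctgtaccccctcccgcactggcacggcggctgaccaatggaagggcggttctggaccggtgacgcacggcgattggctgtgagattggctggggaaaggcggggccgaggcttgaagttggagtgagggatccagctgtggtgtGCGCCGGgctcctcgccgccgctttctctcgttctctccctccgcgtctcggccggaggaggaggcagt
Cacna2d2, chr9:107526741-107526960, plus strand: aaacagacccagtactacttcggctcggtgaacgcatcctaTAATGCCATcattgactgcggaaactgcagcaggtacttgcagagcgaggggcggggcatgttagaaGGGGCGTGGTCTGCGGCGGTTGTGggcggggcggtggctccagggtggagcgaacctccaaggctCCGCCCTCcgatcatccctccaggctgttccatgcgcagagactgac
Cacna1c, chr6:119109051-119109350, minus strand: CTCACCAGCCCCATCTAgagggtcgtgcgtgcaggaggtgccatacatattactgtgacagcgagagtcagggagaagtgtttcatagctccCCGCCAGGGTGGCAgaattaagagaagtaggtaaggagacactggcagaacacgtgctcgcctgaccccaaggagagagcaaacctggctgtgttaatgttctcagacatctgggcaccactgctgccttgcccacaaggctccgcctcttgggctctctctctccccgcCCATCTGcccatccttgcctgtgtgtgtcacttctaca
Scn2a, chr2:65668441-65668640, plus strand: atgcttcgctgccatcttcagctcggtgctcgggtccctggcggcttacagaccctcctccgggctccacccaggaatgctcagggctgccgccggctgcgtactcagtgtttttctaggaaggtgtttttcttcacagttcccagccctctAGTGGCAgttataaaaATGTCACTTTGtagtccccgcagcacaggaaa
Scn3b, chr9:40269041-40269216, plus strand: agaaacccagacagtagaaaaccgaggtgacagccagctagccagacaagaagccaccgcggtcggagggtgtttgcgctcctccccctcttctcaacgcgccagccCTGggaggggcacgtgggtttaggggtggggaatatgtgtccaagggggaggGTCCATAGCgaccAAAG

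These windows differed in composition. Their footprinted bases cannot be compared between windows, because longer stretches were cut to where such bases were most numerous. The Cacna1a window was 82.3% G and C and had 82 bases in footprints of both libraries. It held the letters of the NRF1 motif, GCATGCGC, on both strands at bases 83 to 92, partly inside a footprint. The Cacna1g window had 66.5% G and C and 7 bases in footprints of both libraries, and its copy of the SP/KLF motif, GGGCGG, lay outside them. Cacna2d2 held 4 copies of GGGCGG, of which 1, on the opposite strand at bases 174 to 179, lay inside footprints of both libraries. In the Cacna1c window the neurogenic E-box, CAGATGG, lay inside such a footprint at bases 263 to 269 on the opposite strand.

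Without regard to gene length, channel promoters were accessible about as often as those of all genes, but with weaker peaks. A promoter peak was called in both libraries at 18 of the 32 channel genes (56.2%), against 58.8% of all protein-coding genes, so the share was near the background. In replicate 1 alone the number was 24 (75%, against 63.7%), and in replicate 2 alone 18 (56.2%, against 59.2%). The presence of a peak differed between the libraries for 6 channel genes (18.8%), against 5.29% of all genes, and 8 (25%) had none in either library, against 35.9%. In the shorter, stricter peak list the numbers were 20 in replicate 1 (62.5%, against 58.9%), 14 in replicate 2 (43.8%, against 52.7%) and 14 in both (43.8%, against 52.4%). Bases with an FDR below 0.05 lay in the TSS windows of 18 channel genes in both libraries (56.2%), against 59.8% of all genes. In each library the channel genes with such bases were exactly those with a promoter peak. The FDR runs are thus no separate check of a missing peak. A peak at any start site counts, and channel genes had a median of 7 start sites, against 3 over all genes. At a length of 100 kb or more, 14 of 19 channel promoters were called in both libraries, against 2072 of 2492. The channel share was thus the lower at this length. By family, the calcium channel genes accounted for 13 of 18 with a peak in both libraries and the sodium channel genes for 5 of 14. Among 32 partner genes, such as the ankyrins, the Fgf11 to Fgf14 group, calmodulins and Rim proteins, 26 had one in both.

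The median strength over channel genes with a promoter peak was 1.23 in replicate 1 (24 genes) and 1.14 in replicate 2 (18 genes), against 2.70 and 1.87 over all genes with one. Channel genes are long, with a median span of 111 kb against 17.4 kb. Among genes of 100 kb or more, the medians were 1.20 and 0.87 for 19 channel genes, of which 17 and 14 had a peak, against 1.83 and 1.30 for 2492 genes. Only 3 channel genes in replicate 1 (Cacna1a, Cacna1b and Cacna1g) and 1 in replicate 2 (Cacna1a) lay above the median of all genes with a promoter peak.

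**Figure D1:**
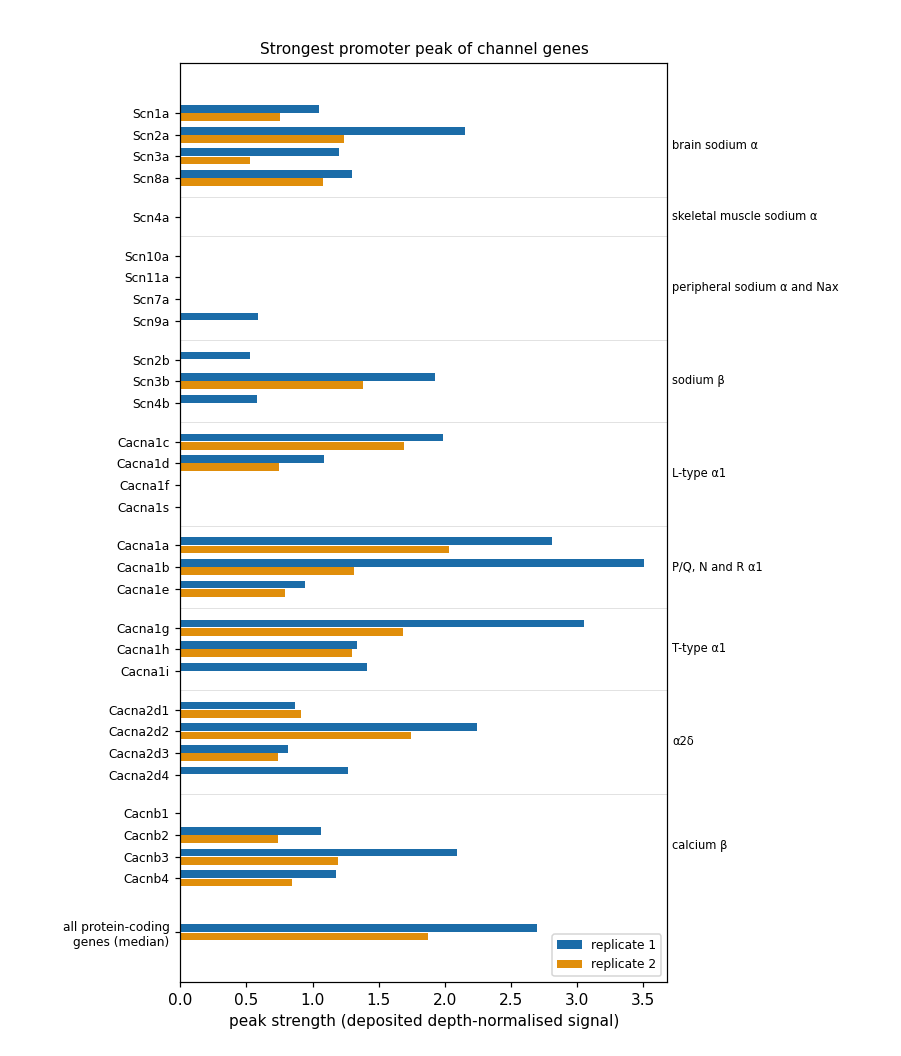
Strength of the strongest promoter peak (horizontal axis, deposited signal) of the channel genes named in the text, by role, with replicate 1 in blue and replicate 2 in orange; a missing bar means no peak. Cacna1b reached 3.51 in replicate 1, and the bottom row gives the medians over all protein-coding genes with a peak, 2.70 and 1.87.

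All 4 brain sodium channel pores were open at a promoter in both libraries, and 3 of them, without Scn3a, in the shorter list. Scn2a, which encodes the main pore of excitatory neurons, had its strongest promoter peak at 2.15 in replicate 1 and 1.24 in replicate 2 (1.69 ± 0.65, SD, n = 2). Scn8a, whose channel gathers at the axon initial segment and nodes, had 1.30 and 1.08 (1.19 ± 0.15, SD, n = 2). Scn1a, important in inhibitory interneurons, had 1.05 and 0.75. Scn3a, best known from the embryonic and newborn brain, had 1.20 in replicate 1 and 0.52 in replicate 2, and its replicate 2 peak held no footprint. All 4 were stronger in replicate 1, and none reached the median of all genes.

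Several sodium channel alpha genes other than the brain sodium pores were without a promoter peak. Scn4a, the skeletal muscle pore, had none in either library, and neither did Scn10a and Scn11a of sensory neurons or Scn7a, a sodium-sensing relative. Scn9a, also a sensory neuron channel, had a peak of 0.59 in replicate 1 and none in replicate 2. In the windows of these 4 genes without a peak, no base was listed with an FDR below 0.05 in either library.

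Of the sodium beta genes, Scn3b was called at its promoter in both libraries, at 1.93 in replicate 1 and 1.38 in replicate 2 (1.65 ± 0.39, SD, n = 2). The Scn3b region with these peaks (chr9:40269041-40269700) held 9 footprints in replicate 1 and 12 in replicate 2. Scn2b and Scn4b, which also encode beta subunits, had peaks of 0.53 and 0.58 in replicate 1 and none in replicate 2.

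Of the P/Q, N and R type calcium channel pores, Cacna1b had the highest value of the set in replicate 1 and Cacna1a that in replicate 2. Cacna1b, the N type pore, had 3.51 in replicate 1 and 1.31 in replicate 2 (2.41 ± 1.55, SD, n = 2), a log2 ratio of 1.42 and the widest gap between libraries among channel genes. Cacna1a, the P/Q type pore, had 2.81 and 2.03 (2.42 ± 0.55, SD, n = 2), at the 52nd and 55th percentiles of all genes with a peak. Cacna1e, the R type pore, was weaker at 0.94 and 0.79.

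Among the T type pores, which open near rest and support burst firing, Cacna1g had 3.05 in replicate 1 and 1.68 in replicate 2, and Cacna1h had 1.33 and 1.30. Cacna1i had 1.41 in replicate 1 and none in replicate 2. Of the L type pores, Cacna1c had 1.99 and 1.69 (1.84 ± 0.21, SD, n = 2) and Cacna1d had 1.08 and 0.75. These 2 are the L type pores of brain. Cacna1f, the pore of photoreceptors, and Cacna1s, that of skeletal muscle, had no promoter peak in either library, and no base below the FDR limit there.

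The auxiliary calcium channel genes were open in most cases. For the alpha2delta genes, Cacna2d2 had 2.24 in replicate 1 and 1.74 in replicate 2 (1.99 ± 0.36, SD, n = 2), Cacna2d1 had 0.87 and 0.91, and Cacna2d3 had 0.81 and 0.74. Cacna2d1 and Cacna2d2 encode the subunits that bind gabapentin. Cacna2d4 had 1.27 in replicate 1 and none in replicate 2, at a start site that Lrtm2 shares. For the beta genes, Cacnb3 had 2.09 and 1.19 (1.64 ± 0.63, SD, n = 2), Cacnb4, the gene mutated in the lethargic mouse, had 1.18 and 0.84, and Cacnb2 had 1.06 and 0.74. Cacnb1, which serves skeletal muscle as well as brain, had none in either library.

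The promoter peak was stronger in replicate 1 than in replicate 2 at 17 of the 18 channel genes (94.4%), against 95.5% of 12910 genes with one in both, and Cacna2d1 was the exception. In all 14 channel genes without a replicate 2 peak, no base of the TSS windows was listed below the FDR limit in replicate 2. FDR runs and peaks went together at every channel gene, so that absence is not a separate check. Replicate 1 was the deeper library, and the part of depth in these 6 differences was not tested.

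Many channel genes have several start sites, and the accessible one differed in position between genes. Joining start sites no more than 1000 bp apart gave 127 clusters, of which 36 had a peak in replicate 1 and 24 in replicate 2, all 24 of them in both. The first, most 5′ cluster was open in both libraries in 12 of the 18 channel genes. In Cacna1a, Cacna1c, Cacna1d, Cacna1e, Cacnb2 and Cacnb4 it was not, and another cluster was. In Cacna2d2, Cacnb2, Cacnb3, Scn1a and Scn2a, more than 1 cluster was open in both. Of the 67 promoter regions, 9 also lay at a TSS of another annotated gene, in Cacna2d1, Cacna2d4, Cacnb2 and Scn1a, and such a peak cannot be assigned to the channel gene alone.

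The site that carried the Cacna1a value was not at a coding start. It lay 251 kb from the 5′ end, beside the start of a noncoding transcript and over a coding exon (chr8:84639321-84639780). The cluster of 3 coding transcripts at 26.9 kb had 0.66 in replicate 1 and no peak in replicate 2. Likewise the Cacna2d2 value came from the start of a noncoding transcript at 127 kb, whereas its 5′ cluster of 6 coding transcripts had 0.63 in replicate 1 and 0.51 in replicate 2.

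Other genes were open at an inner start site. In Cacna1c the peaks lay at 87.8 kb, where 12 coding transcripts begin, and the 5′ cluster, with 4 coding transcripts, had none in either library. Cacna1d was open at 138 kb, Cacna1e at 158 kb and Cacnb4 at 118 kb. The 5′ cluster of Cacna1d had no peak in either library. Those of Cacna1e and Cacnb4 had peaks in replicate 1 alone, up to 0.51 and 0.80. In Scn2a the inner cluster at 47.9 kb, at 2.15 in replicate 1 and 1.24 in replicate 2, stood above the 5′ cluster at 1.16 and 0.99. In Scn1a the cluster at 30.8 kb, at 1.05 and 0.75, stood above the 5′ cluster at 0.44 and 0.39. Cacnb2 was open at 3 clusters, 1.22, 136 and 271 kb from its 5′ end, of which that at 136 kb has no coding transcript.

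**Figure D2:**
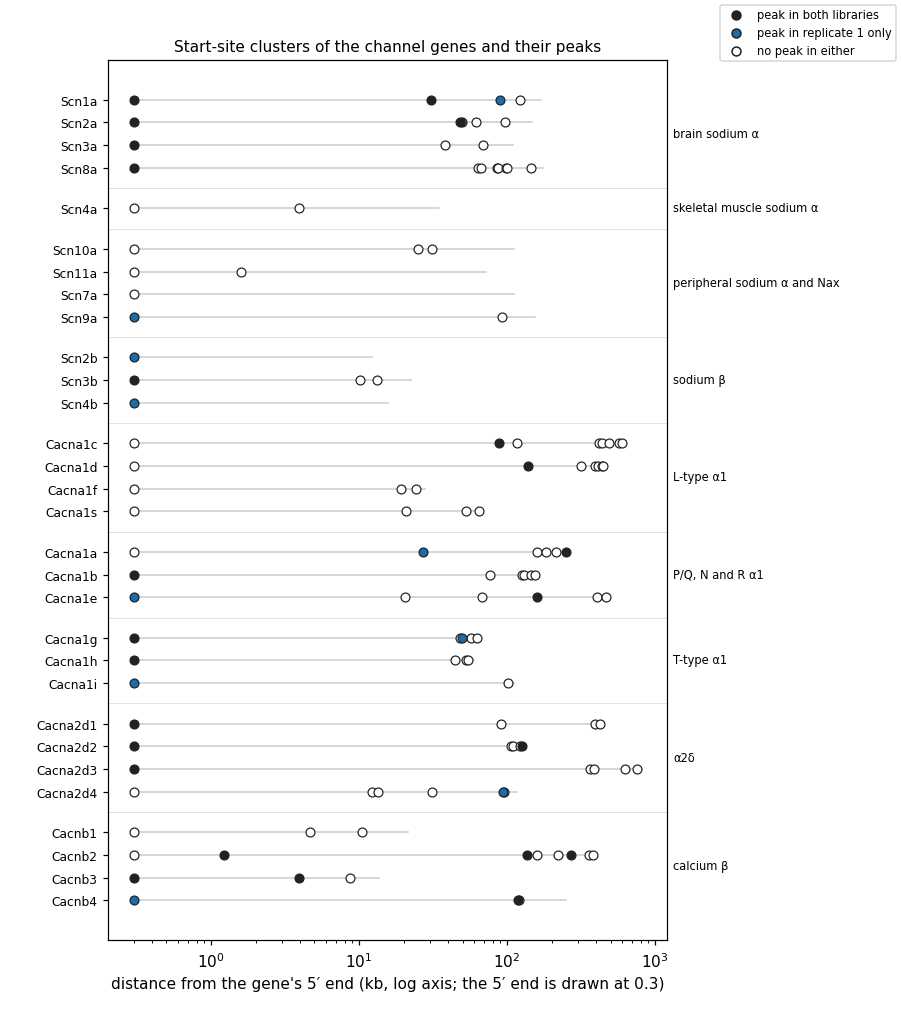
Start-site clusters of the channel genes named in the text by distance from the 5′ end of the gene in kb on a log axis, with the 5′ end itself drawn at 0.3. Black circles had a peak in both libraries, blue in replicate 1 only and white in neither; 24 clusters were open in both, and near neighbours overlap in the drawing.

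Footprints were present in the promoter peaks of 17 channel genes in both libraries (53.1%), against 56.3% of all protein-coding genes. Channel promoter peaks held 10.7 footprints per kb in replicate 1 and 10.4 in replicate 2, against 11.9 and 11.3 per kb for all promoter peaks. In promoter regions called in both libraries, 29.6% of the footprint bases of replicate 1 and 47.1% of those of replicate 2 were footprint in the other library too. Over all such promoter regions the shares were 47.9% and 59.7%. In linked regions the channel genes had 50.1% and 63.8%, close to the 49.4% and 63.5% of all regions off TSSs. That set holds every region that overlaps no TSS window, near a gene or not.

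Away from start sites, the channel genes carried more accessible sites than all genes in the median, and per unit of length the difference was smaller. At least 1 linked peak in each library was found at 28 channel genes (87.5%), against 54.3% of all genes, and 10 or more in each at 5 (15.6%), against 1.51%. The median was 4.5 linked peaks in replicate 1 and 3.5 in replicate 2, against 1 and 1. Among genes of 100 kb or more it was 8 and 5 for channel genes, against 6 and 4. The density per 100 kb of gene and flanks was 4.17 for channel genes in replicate 1 and 2.36 in replicate 2, against 3.42 and 2.22 over all genes.

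The 5 genes with 10 or more in each library were all calcium channel genes. Cacna1d held 49 in replicate 1 and 13 in replicate 2 (31 ± 25.5, SD, n = 2), Cacna1c 23 and 13, Cacna1e 22 and 14, Cacna1a 22 and 13, and Cacna2d3 20 and 11. They were followed by Scn8a with 15 and 6, Cacnb2 with 10 and 8, Cacna1b with 7 and 8, and Cacna2d1 with 11 and 4. The sodium channel genes had fewer, with a median of 2 in replicate 1 and 1.5 in replicate 2, against 8 and 5.5 in the calcium channel genes. Sodium channel genes also spanned less, 103 kb in the median, against 144 kb. Per 100 kb of gene and flanks they still had fewer linked peaks, 3.08 in replicate 1 and 1.77 in replicate 2, against 4.52 and 2.55.

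Genes of similar length differed. Scn2a, of 147 kb, held 4 in replicate 1 and none in replicate 2, and Scn1a, of 170 kb, had 2 and 1. Scn8a, of 176 kb, had 15 and 6. Scn3b and Scn7a had 1 in replicate 1 only. Short genes were dense by this measure: Scn2b had 10.8 linked peaks per 100 kb and Cacnb1 also 10.8, against 6.57 in Cacna1d. The flanks of the neighbours Scn2b and Scn4b overlap, so a peak between these genes can belong to either.

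**Figure D3:**
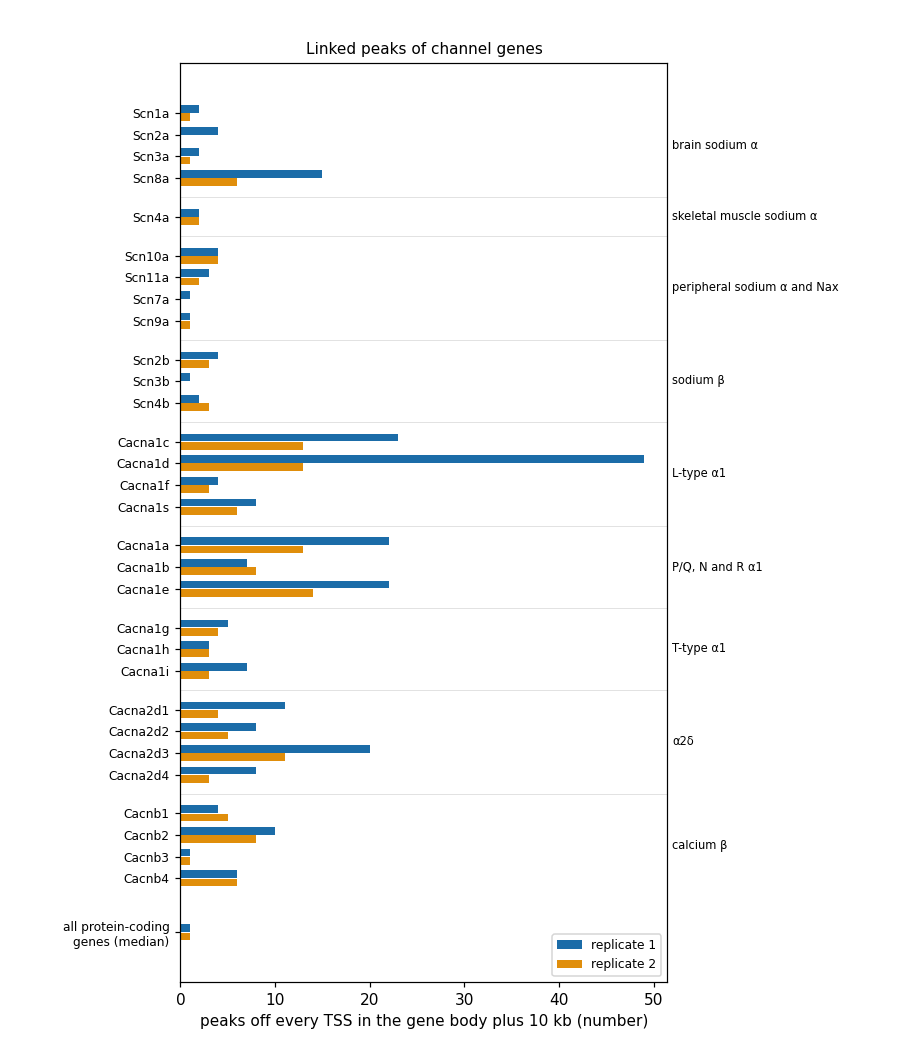
Number of linked peaks (horizontal axis) of the channel genes named in the text, by role, with replicate 1 in blue and replicate 2 in orange. Cacna1d reached 49 in replicate 1 and 13 in replicate 2, while the median over all protein-coding genes, in the bottom row, was 1 in each.

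The count of Cacna1d rested on a dense run in replicate 1. Between 244 and 273 kb from its 5′ end, 28 regions stood within 28.9 kb, every one of them called in replicate 1 and not in replicate 2. Their strengths were between 0.08 and 0.79, with a median of 0.15, against a median of 0.66 over all peaks of that library. In all, 39 of the 51 linked regions of Cacna1d were called in replicate 1 alone, 10 in both and 2 in replicate 2 alone. Linked regions no more than 10 kb apart formed no run of more than 5 regions in any other channel gene, and in that run, in Cacna1c, 4 were called in replicate 1 alone. The cause of the run was not tested, and without Cacna1d the linked peaks per 100 kb of the other channel genes were 3.00 in the mean of the libraries, against 3.27 with it.

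**Figure D4:**
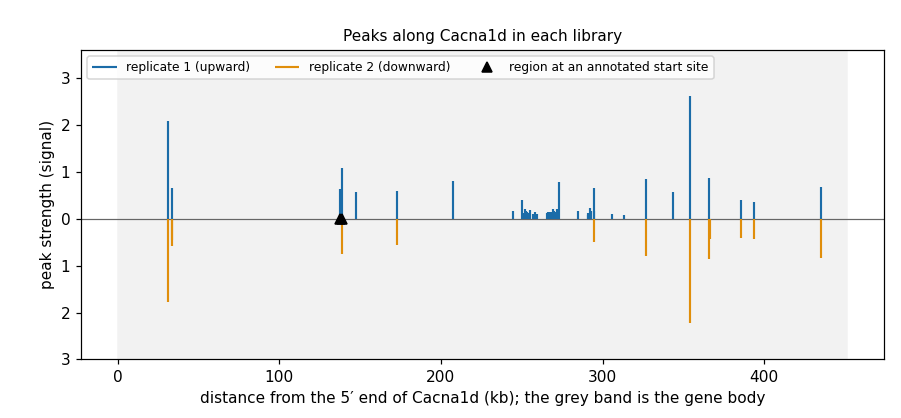
Strength of every peak region of Cacna1d (vertical axis, deposited signal) by distance from its 5′ end in kb, with replicate 1 drawn upward in blue and replicate 2 downward in orange; triangles mark regions at an annotated start site. The low blue lines between 244 and 273 kb are the 28 regions called in replicate 1 only.

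Genes without an accessible promoter still had linked peaks. Cacna1s held 8 in replicate 1 and 6 in replicate 2, led by an intronic site 8.89 kb from its 5′ end at 2.53 and 2.20. Cacnb1 had 4 and 5, Scn10a 4 and 4, Cacna1f 4 and 3, Scn11a 3 and 2, and Scn4a 2 and 2. A linked peak is placed by position, and which gene it serves was not measured.

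Of 289 linked regions of channel genes, 248 (85.8%) lay in introns, 17 over coding exons, 14 between genes, 6 over UTRs and 4 over noncoding exons. In both libraries, 11 linked regions had a strength above 2. The highest in the mean of the libraries was in an intron of Cacna1e, at 3.55 in replicate 1 and 3.52 in replicate 2, and stronger than that gene's promoter peak in both. Next came an intron of Cacna2d4, at 3.32 and 3.37, a gene with no promoter peak in replicate 2. An intronic site of Cacna2d2 had 3.84, the highest in replicate 1, and 2.44. The 3 sites are printed as the 3 linked sites with the highest mean strength over both libraries, again with capitals for bases in footprints of both libraries, in GRCm38 letters on the strand of the gene.
Cacna1e, chr1:154729661-154729880, minus strand: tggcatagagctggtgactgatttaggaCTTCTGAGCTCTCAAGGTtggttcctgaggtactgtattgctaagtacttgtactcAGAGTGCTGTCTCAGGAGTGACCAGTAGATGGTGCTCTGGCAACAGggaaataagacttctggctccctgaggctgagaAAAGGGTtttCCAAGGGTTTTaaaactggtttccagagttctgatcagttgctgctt
Cacna2d4, chr6:119348341-119348540, plus strand: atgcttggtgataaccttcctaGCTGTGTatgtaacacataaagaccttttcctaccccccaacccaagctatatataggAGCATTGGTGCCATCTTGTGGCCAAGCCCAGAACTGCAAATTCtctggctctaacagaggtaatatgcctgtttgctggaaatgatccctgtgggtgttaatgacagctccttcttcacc
Cacna2d2, chr9:107514681-107514840, plus strand: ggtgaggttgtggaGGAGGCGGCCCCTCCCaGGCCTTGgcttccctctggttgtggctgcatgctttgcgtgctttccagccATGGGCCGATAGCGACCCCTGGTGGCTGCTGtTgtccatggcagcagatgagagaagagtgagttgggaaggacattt

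The Cacna1e site lay 155 kb from the 5′ end, 3414 bp from the nearest annotated start site of the gene, and 82 of its 220 bases were in footprints of both libraries. The Cacna2d4 site lay 112 kb from the 5′ end, with 50 such bases, and the letters of the CTCF motif were inside them on the opposite strand at bases 89 to 101. The Cacna2d2 site lay 115 kb from the 5′ end, with 55 such bases.

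CTCF is a zinc finger protein that binds insulators and the anchors of chromatin loops. Its letters were searched as a core of 13 positions on both strands. Linked regions called in both libraries held 20 matches, and 14 of them (70.0%, 95% Wilson interval 48.1 to 85.5) lay wholly inside footprints of both. Over all regions off TSSs called in both libraries, the share was 60.3% of 7104 matches, which lies within that interval. The 14 matches lay in 12 genes, 11 in calcium channel genes and 3 in sodium channel genes. Calcium channel genes also held most of the linked peaks, 218 in replicate 1 and 123 in replicate 2, against 47 and 27 in sodium channel genes. The 6 with the strongest regions are printed with the match in capitals and 10 bases on each side, in GRCm38 letters on the strand of the match, to show the shared core.
Cacna2d4, chr6:119348419-119348451, minus strand: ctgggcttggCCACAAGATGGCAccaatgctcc
Cacna1e, chr1:154788244-154788276, plus strand: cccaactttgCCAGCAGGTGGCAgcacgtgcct
Cacnb1, chr11:98031643-98031675, plus strand: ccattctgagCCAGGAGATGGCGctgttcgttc
Cacna1c, chr6:119104455-119104487, minus strand: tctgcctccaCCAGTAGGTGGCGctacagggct
Cacna2d2, chr9:107463698-107463730, minus strand: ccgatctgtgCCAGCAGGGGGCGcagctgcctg
Cacna1h, chr17:25397999-25398031, plus strand: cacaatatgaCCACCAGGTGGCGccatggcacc

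Of these, 5 lay in introns, and that of Cacnb1 was between genes, 8.63 kb upstream of its 5′ end. The Cacnb1 region had 2.27 in replicate 1 and 2.62 in replicate 2 and was thus stronger in replicate 2. The Cacna1h region, 35.8 kb into the gene, was also stronger in replicate 2, at 1.98 and 2.15. The Cacna1c region had 2.42 and 2.08, above the promoter peak of the gene in both libraries.

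Other motifs were searched in the same way. A motif match is a description of letters, not of binding. In promoter regions called in both libraries, 46 copies of GGGCGG were found and 5 (10.9%, Wilson interval 4.73 to 23.0) lay inside footprints of both, against 20.4% of 28271 over all such regions, which is within the interval. In the central 200 bp of promoter regions, GGGCGG was present in 25 of 67 channel regions (37.3%), against 42.1% of 28646. The core of the cyclic AMP response element, TGACG, was present in 6 (8.96%), against 19.6%. In RefSeq promoter windows (GRCm38.p6, 250 bases before to 50 after the start), which matched 24 channel genes in 34 windows, GGGCGG was present in 14 (41.2%), against 35.7% of 32851, and TGACG in 6 (17.6%), against 20.8%.

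REST is a repressor that binds neuronal genes, including sodium channel genes, in cells that are not neurons. In the 200 bp around region midpoints, which can reach past a short region, the joined REST motif was found at no channel promoter region. It was found at 1 of 289 linked regions, at Scn10a, outside footprints, against 0.0403% of all regions off TSSs. The neurogenic E-box CAGATGG was found in 26 of 289 linked regions, against 9.83% of all, and the AP-1 letters TGANTCA in 23 (7.96%), against 8.69%. Median G and C content was 61.5% in channel promoter regions, against 62% over all regions at a TSS. It was 53% in channel linked regions, against 51% over all regions off TSSs.

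The share of channel regions called in both libraries was lower than that of all regions, in part through Cacna1d. Of 356 channel regions, 155 (43.5%, 95% Wilson interval 38.5 to 48.7) were called in both, against 52.5% of 100545 regions. For promoter regions the numbers were 36 of 67 (53.7%, interval 41.9 to 65.1), against 67.3%, which lies above the interval. For linked regions they were 119 of 289 (41.2%, interval 35.7 to 46.9), against 46.6% of all regions off TSSs, which lies within the interval. Without Cacna1d the share was 47.5% of 303 regions (interval 42.0 to 53.1), an interval that holds the 52.5% of all regions. Regions at a TSS made up 67 of the 356 channel regions, against 28646 of all 100545, so the mix of regions at and off TSSs differed. Wilson intervals here cover counting error only.

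Regions called in a single library were weaker. Of the linked regions, 143 were called in replicate 1 alone, with a median strength of 0.48, and 27 in replicate 2 alone, with a median of 0.52. Those called in both had medians of 0.89 and 0.78. Regions in both libraries had a median log2 ratio of replicate 1 over replicate 2 of 0.26, against 0.32 for all shared regions. That value lies within the 95% interval of the channel median, 0.21 to 0.34. For promoter regions the median was 0.33 (interval 0.24 to 0.48), against 0.52 for all regions at a TSS, which lies above the interval. For linked regions it was 0.23 (interval 0.16 to 0.34), against 0.22 for all regions off TSSs, which lies within it.

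**Figure D5:**
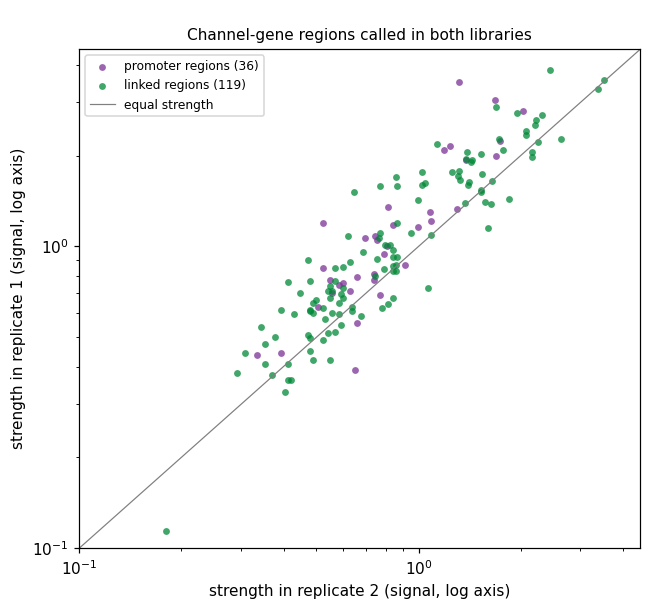
Strength in replicate 1 (vertical axis) against replicate 2 (horizontal axis) for the channel regions called in both libraries, on log axes, with promoter regions in purple (36) and linked regions in green (119). Most points lie above the grey line of equal strength; the median log2 ratio was 0.26.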

How the data were processed

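DNase-seq was measured in 2 libraries of frontal cortex, labelled biological replicates of 1 group. Per the deposited notes, the authors called peaks, footprints and FDR cut rates separately in each library, after alignment to mm10. The aligner, caller and settings are not given in the sources consulted. Peak strength is the deposited signal, which the notes list as normalised for read depth. FDR values, on a p-value scale, were deposited for runs of bases, each below 0.05. The value column of the footprint files is 0.01 throughout, and only positions were used. Each library has a longer and a shorter peak list. The longer was used, and the shorter was an alternative.

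Coordinates are 1-based. Genes and start sites came from GENCODE M21, and letters from GRCm38.p6. Overlaps of at least 1 bp were computed with numpy 2.4.6 and pandas 2.3.3, intervals with scipy 1.17.1 and letters with pysam 0.24.0. Peaks of both libraries were merged into regions, and a region's strength was its highest peak in each library. A footprint was counted for a promoter peak of its own library that held its midpoint. Where peaks of the same library overlapped, each of them counted the footprint. Motif letters were searched on both strands, a palindrome once. The CRE core lies within the full CRE. Percentiles rank a gene among protein-coding genes with a promoter peak. On simulated peaks the linked peak numbers equalled those of bedtools 2.31.1 for 32 of 32 genes, and 30 of 30 planted motif copies were found.

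The members, role lists, partner list and motifs were chosen with earlier results of these data known. Values of 2 members are not reported here singly, though all counts and medians include them. Full values are given for 12 chosen by mean rank of their promoter strength, 8 chosen by number of linked peaks, and those whose promoter peak was in 1 library or none. Genes and sites named for start-site position, for the dense run in Cacna1d or for CTCF matches were chosen after their values were seen. Depth of the libraries is known only through the signal step, and intervals cover counting error only.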

Additional observations from a re-analysis of the deposited data

How the results depend on the processing

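Under 47 recomputations of the 8 summary values, 34 stayed within a factor of 1.5 for counts of genes, or within the spread of the libraries or the 95% interval for other values. The 47 include values with a replicate left out. For median strength, linked peaks, their density and footprints per kb, those fall within the spread by construction and are no check. With the shorter peak list the median promoter strength was 1.29 (1.18 as reported), the median number of linked peaks 2.5 (4), linked peaks per 100 kb 1.65 (3.27) and footprints per kb of promoter peak 15.1 (10.5). A TSS window of 250 bp gave a median strength of 0.95 and 9.81 footprints per kb. With the 5′ end of the gene record alone, 11 members had a promoter peak in both libraries (18), 8 a promoter footprint in both (17), and the median strength was 1.03. Fewer start sites are counted there by construction. A flank of 50 kb gave a median of 7.5 linked peaks and leaving out only a gene's own TSSs gave 4.75. Regions called in both libraries made up 49.6% with equal numbers of strongest peaks and 29.8% with 50% reciprocal overlap, against 43.5%. Leaving out a replicate gave 18 to 24 members with a promoter peak, 17 to 22 with a promoter footprint, median strengths of 1.14 to 1.23, medians of 3.5 to 4.5 linked peaks, 2.36 to 4.17 linked peaks per 100 kb and 10.4 to 10.7 footprints per kb. Leaving out Cacna1d was chosen after seeing the data and gave a median of 3.5 linked peaks. For single genes, the number of linked peaks stayed within the libraries' spread at 25 of 32 with no flank, 12 of 32 with the shorter list and 9 of 32 with a flank of 50 kb. A promoter with no peak in a library was not detected there, which does not show that it was closed. No paired analysis was possible because there is only 1 group.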
